A study of Mus musculus with 4 samples.

Results

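Collagens outside basement membranes are the collagen chains that build fibrils, coat fibrils, form beaded filaments and open networks, anchor epithelia or sit in the plasma membrane, and here they comprise every collagen gene of the deposited table except the 8 basement membrane chains. This rule uses gene names alone, and it gave 34 of the 23537 genes of the table. RNA was sequenced from subconfluent primary cultures of fibroblasts (MEFs) that had been grown out of mouse embryos of day 12.5 post coitum. There were 2 samples from Mbd4-/- mice (KO) and 2 from Mbd4+/+ mice (WT), all labelled as strain C57BL/6. No agent was applied to either genotype. The KO is carried by every cell of the animal, MBD4 being a DNA glycosylase that removes thymine or uracil mispaired with guanine. From how many embryos or cultures the samples of a genotype came is not stated, and the spread behind each p-value is therefore that between 2 samples and could be technical.

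All collagens share long stretches in which glycine recurs at a fixed spacing, and their chains wind into a rope-like helix of identical or different chains. Fibrillar collagens (types I, II, III, V, XI, XXIV and XXVII) are made as procollagens, trimmed outside the cell and packed into the striped fibrils that carry tension in skin, bone, tendon and cartilage. Fibril-associated collagens decorate those fibrils, type VI forms beaded filaments around cells, types VIII and X form networks, type VII anchors basement membranes to the stroma, and types XIII, XVII and XXIII span the plasma membrane. Fibroblasts are a main source of interstitial collagen, above all of types I, III, V and VI.

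The promoters of 4 members are shown because MBD4, the protein targeted in the KO, binds DNA at methylated CpG sites. They are the most CpG-rich window among members that were higher in KO (Col8a2), the next richest among members strongly higher in KO (Col23a1), and the richest and one of the poorest among members that were lower in KO (Col5a1 and Col3a1). Each line gives RefSeq's sequence on GRCm38.p6, running 5′ to 3′ along the gene over 250 bases before and 50 bases after the annotated start, with CG in capitals. They lie at chr4:126286544-126286843, chr11:51289670-51289969, chr2:27886175-27886474 and chr1:45311288-45311587, all on the plus strand.
Col8a2: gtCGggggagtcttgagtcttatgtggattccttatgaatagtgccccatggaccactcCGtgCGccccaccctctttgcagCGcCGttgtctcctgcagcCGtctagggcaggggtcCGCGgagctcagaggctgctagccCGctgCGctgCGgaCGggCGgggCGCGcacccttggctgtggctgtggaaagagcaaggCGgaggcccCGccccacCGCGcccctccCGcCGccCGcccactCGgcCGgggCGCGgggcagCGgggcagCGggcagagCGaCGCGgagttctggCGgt
Col23a1: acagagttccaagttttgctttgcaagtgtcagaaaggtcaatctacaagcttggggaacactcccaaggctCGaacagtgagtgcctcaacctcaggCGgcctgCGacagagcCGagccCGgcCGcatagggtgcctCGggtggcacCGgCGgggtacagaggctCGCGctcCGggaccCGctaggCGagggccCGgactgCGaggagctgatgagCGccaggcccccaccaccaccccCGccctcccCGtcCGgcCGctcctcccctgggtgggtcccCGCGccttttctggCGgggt
Col5a1: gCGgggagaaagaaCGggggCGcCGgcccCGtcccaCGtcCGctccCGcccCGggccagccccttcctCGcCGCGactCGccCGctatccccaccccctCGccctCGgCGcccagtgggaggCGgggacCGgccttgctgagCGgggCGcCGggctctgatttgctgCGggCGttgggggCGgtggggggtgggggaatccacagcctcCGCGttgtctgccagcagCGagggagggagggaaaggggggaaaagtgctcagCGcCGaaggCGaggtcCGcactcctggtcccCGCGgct
Col3a1: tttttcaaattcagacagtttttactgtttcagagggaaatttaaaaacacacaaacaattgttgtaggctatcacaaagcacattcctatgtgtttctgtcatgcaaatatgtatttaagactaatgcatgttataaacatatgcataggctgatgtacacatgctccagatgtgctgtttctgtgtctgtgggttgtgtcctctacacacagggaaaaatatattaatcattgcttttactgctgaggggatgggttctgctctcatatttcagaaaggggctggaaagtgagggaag

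These windows held 32 CpG in Col8a2, 24 in Col23a1, 34 in Col5a1 and 0 in Col3a1. The RefSeq table held a window for 27 of the 34 members, and it had no entry for Col12a1, Col14a1, Col1a1, Col22a1, Col2a1, Col5a2 and Col9a3. Taking the richest start of a gene, the 12 members higher in KO with a window had a median of 14 CpG (range 1 to 32). The 10 members lower in KO had a median of 10.5 (range 0 to 34), so both directions of change held CpG-rich and CpG-poor starts. Among them Col17a1, Col6a4 and Col9a2 (higher, with 5, 5 and 10 CpG) and Col9a1 (lower, with 1) passed the filter on low counts through 1 genotype only. Over all 32851 promoters of the table the median was 7.0. Every start was counted there, while a member counted by its richest start, so these are no like measures. At least 1 CG (letters CG, which read the same on both strands) stood in 94.6% of all promoters and in 25 of the 27 members (92.6%). These counts describe the letters of a window only.

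The libraries held 45223089 and 39108275 counts in KO and 47567835 and 42796997 counts in WT, and levels are given as CPM, the counts scaled to a common library size after TMM scaling. Mbd4 itself had 7.85 and 7.33 CPM in KO, against 14.8 and 15.4 CPM in WT (log2 fold change -0.99, SE 0.11, adjusted p = 2.8e-06), so reads were still counted over this gene in KO. The deleted part of the gene is not given in the labels. Of 10 fibroblast markers, Vim and Fn1 had 2696 CPM or more in every library but were lower in KO (log2 -0.59 and -0.89). Dcn and Lum, proteoglycans of fibrils, were near 0 in KO, Dcn with 0.105 and 0.170 CPM in KO against 30.1 and 27.4 CPM in WT, and Lum with 0 and 1 counts in KO against 142 and 131 counts in WT. Prrx1 went the other way, with 531 and 515 CPM in KO against 124 and 153 CPM in WT (log2 1.92). Fap was also called higher in KO, but it was under 0.3 CPM in every library. It passed the filter on low counts through KO only. The spread common to all genes was low, with a biological coefficient of variation of 0.0597.

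Nearly every collagen that could be tested differed between the genotypes. A filter on low counts left 30 of the 34 members. Of these, 14 were higher and 14 lower in KO at an adjusted p under 0.05 (edgeR's quasi-likelihood test, adjusted over 15538 genes), and Col22a1 and Col28a1 passed in neither direction. The share called, 93.3%, stands beside 66.8% over all genes tested, of which 34.3% were higher and 32.5% lower in KO. At an adjusted p under 0.01 with an absolute log2 fold change over 2, hereafter a strong change, 8 members were higher and 2 lower, 33.3% of those tested, against 8.94% of all genes (5.79% higher and 3.15% lower). The KO and WT libraries did not overlap for 29 of the 30 members, against 82.8% of all genes. The median log2 fold change of the members was 0.28, against 0.02 over all genes. Col17a1, Col6a4, Col9a1 and Col9a2 passed the filter through 1 genotype only. Their selection thus favoured a difference, and their calls are no separate support. Leaving them out, 11 of 26 members were higher and 13 lower, 5 and 1 of them strongly. In a separate fit that asked for at least 10 counts in every library, which drops these genes, the median was -0.07. The shares over all genes still include genes that passed through 1 genotype only, so they are no like measure for these 26.

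**Figure D1:**
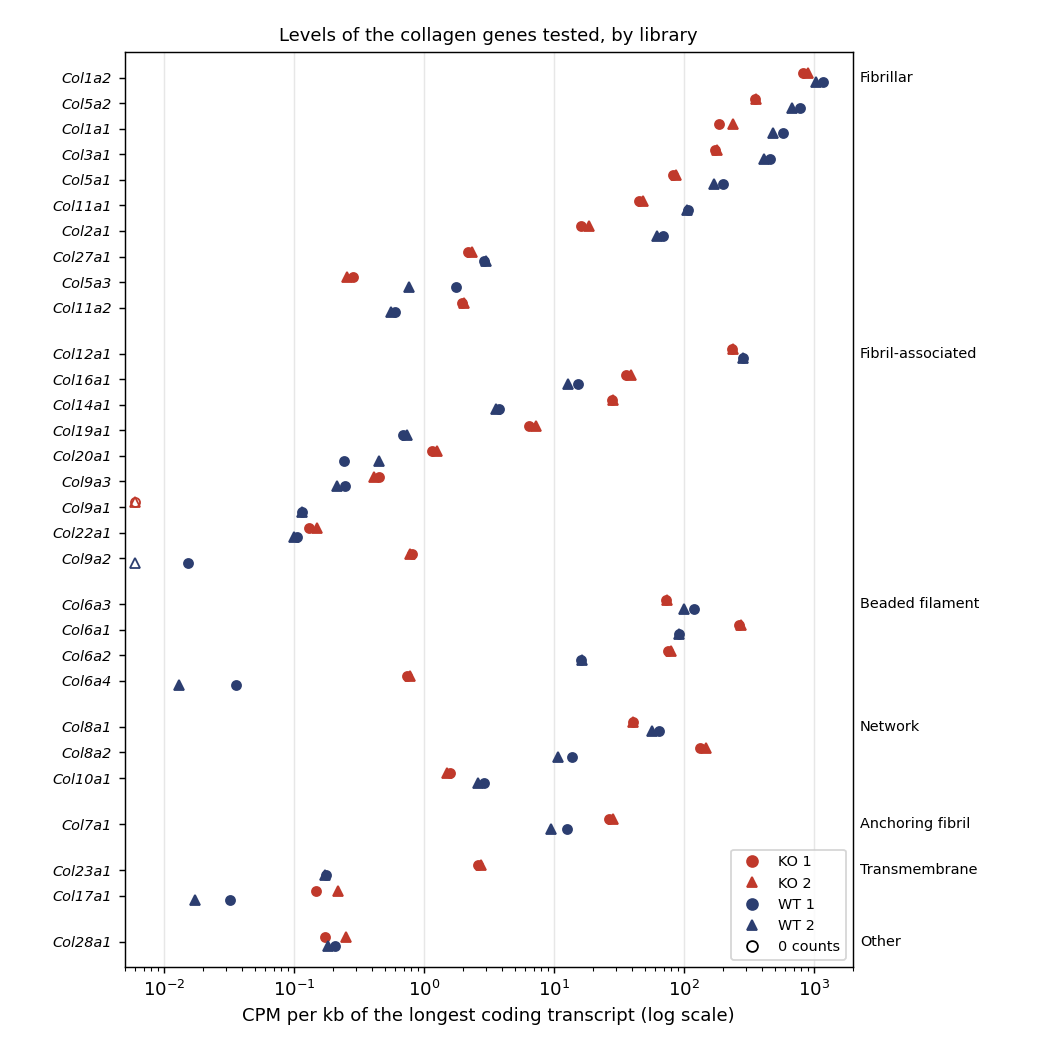
Level of each of the 30 tested members in the 2 KO libraries (red) and the 2 WT libraries (blue), grouped by structural class, in CPM per kb of the longest coding transcript on a log axis, with open symbols at the left edge for 0 counts. Col8a2, Col14a1 and Col23a1 stand well to the right in KO, while Col1a1, Col2a1 and Col3a1 stand to the left.

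Fibrillar collagens were mostly lower in KO. Of the 11 fibrillar members, 10 were tested, 9 were lower and only Col11a2 was higher, with a median log2 fold change of -1.16. Col1a2, the α2 chain of type I collagen and the most abundant member in both genotypes, had 4423 and 4859 CPM in KO, against 6345 and 5533 CPM in WT (log2 fold change -0.36, SE 0.08, adjusted p = 0.0012). Its partner Col1a1 (chr11:94797538-94814356 of mm9, plus strand) had 1112 and 1428 CPM in KO, against 3434 and 2885 CPM in WT, which is 2.49-fold lower (log2 -1.32, SE 0.11, adjusted p = 1.3e-07). In both genes the highest KO library lay below the lowest WT library, and the change of Col1a1 was the larger. Col3a1, the chain of the type III collagen of compliant tissues, had 962 and 1006 CPM in KO, against 2549 and 2319.8 CPM in WT (log2 -1.31, SE 0.07, adjusted p = 1.6e-09). In bulk RNA, fewer cells of one type and less RNA per cell cannot be told apart.

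Type V and type XI chains sit inside fibrils and limit their width. Col5a2 had 2345 and 2383 CPM in KO, against 5162 and 4537 CPM in WT (log2 -1.04, SE 0.07, adjusted p = 3.1e-08). Col5a1 had 699.9 and 735 CPM in KO, against 1671 and 1448 CPM in WT (log2 -1.12, SE 0.07, adjusted p = 1.6e-08), so both main type V chains were lower by a like amount. The rarer Col5a3, the other chain of the type, had 1.75 and 1.58 CPM in KO, against 10.8 and 4.74 CPM in WT (log2 -2.23, SE 0.31, adjusted p = 2.5e-05). Its 2 WT libraries differed widely, and the log2 fold change was -1.50 without WT replicate 1 and -2.72 without WT replicate 2. Col11a1 had 344 and 371 CPM in KO, against 828 and 819.6 CPM in WT (log2 -1.20, SE 0.06, adjusted p = 1.6e-09). Col11a2, which joins Col11a1 in the type XI molecule of cartilage, went the other way at a far lower level, with 11.9 and 12.3 CPM in KO against 3.64 and 3.37 CPM in WT (log2 1.78, SE 0.13, adjusted p = 4.5e-08).

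Col2a1, the main collagen of cartilage, had 82.9 and 94.7 CPM in KO, against 355 and 319.7 CPM in WT, which is 3.80-fold lower (log2 -1.93, SE 0.08, adjusted p = 1.1e-10). Of 5 cartilage markers tested, Acan, Sox9 and Lect1 were lower in KO, and Matn3 (log2 0.02) and Comp (log2 0.16) passed in neither direction. The list summed to 50.3 and 56.6 CPM in KO, against 276 and 278 CPM in WT, and without Lect1, the gene of chondromodulin, to 45.9 and 52.3 CPM in KO, against 109.7 and 104.8 CPM in WT. Hapln1, a link protein of cartilage matrix, had 0 and 0 counts in KO and 1 and 0 counts in WT. Their part in the Col2a1 result was not tested. Col27a1, a fibrillar chain of cartilage with a short helix, had 16.7 and 18.0 CPM in KO, against 21.9 and 22.9 CPM in WT (log2 -0.37, SE 0.09, adjusted p = 0.0020). Col24a1 was not tested, with 1 and 1 counts in KO against 0 and 0 counts in WT.

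**Figure D2:**
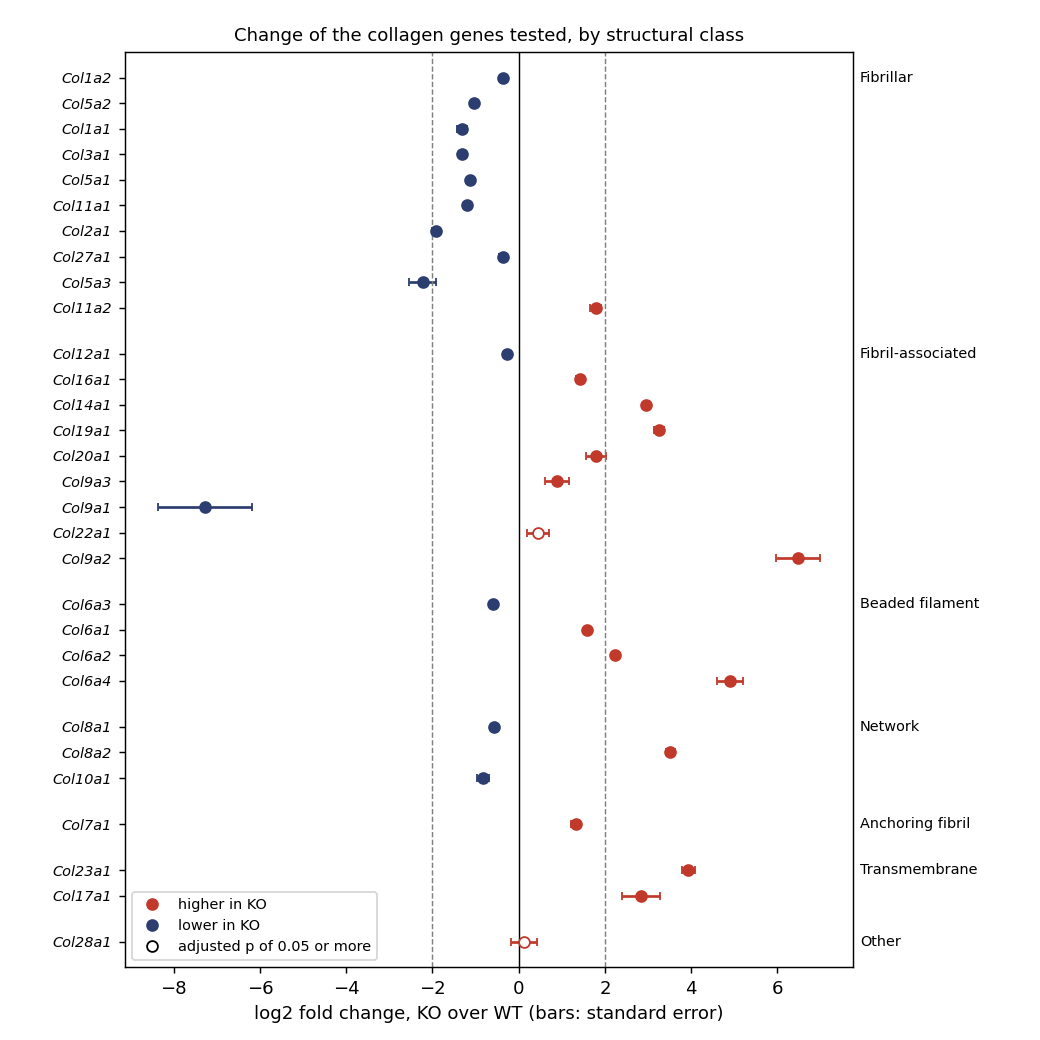
Log2 fold change (KO over WT) of the 30 tested members by structural class, with bars of 1 standard error, open points for members that did not pass an adjusted p of 0.05, and dashed lines at the fold limit of a strong change. Col11a2 is the only fibrillar chain to the right of 0, and the fitted values of Col9a1 and Col9a2, which rest on libraries at 0 counts, are no bounds.

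Fibril-associated collagens bind to the surface of fibrils and space them. Of the 9 members, all tested, 6 were higher, 2 lower and 1 passed in neither direction in KO, with a median log2 fold change of 1.42. These counts hold Col9a1 (lower) and Col9a2 (higher), which passed the filter through 1 genotype only. Col12a1, the most abundant of them and a chain of tendon and other loaded tissue, had 2686 and 2774 CPM in KO, against 3289 and 3317 CPM in WT. This small difference (log2 -0.27, SE 0.06, adjusted p = 0.0015) did not pass when plain library totals set the scale (log2 -0.13, adjusted p = 0.078). Its close relative Col14a1 (chr15:55139305-55352358 of mm9, plus strand), a regulator of fibril growth in skin and tendon, had 182 and 186 CPM in KO, against 24.5 and 23.3 CPM in WT. The means were 184 ± 2.76 CPM in KO and 23.9 ± 0.835 CPM in WT (SD, n = 2 each), a 7.69-fold rise (log2 2.94, SE 0.07, adjusted p = 4.7e-13). Col12a1 and Col14a1 were thus called in opposite directions. Of 4 tendon markers tested, 1 was higher (Tnmd, 223 and 209 CPM in KO against 2.70 and 2.51 CPM in WT) and 1 was lower in KO (Scx). The tendon list summed to 274 and 267 CPM in KO, against 109 and 95.6 CPM in WT, but Tnmd carried this rise, and without it the list summed to 51.8 and 58.2 CPM in KO, against 106 and 93.1 CPM in WT. The part of these genes in the Col14a1 result was not tested.

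Col16a1, a minor component of fibrils and of fibrillin networks, had 189 and 204 CPM in KO, against 79.9 and 67.2 CPM in WT (log2 1.42, SE 0.08, adjusted p = 3.4e-09). Col19a1, a collagen of muscle and brain, had 27.5 and 30.9 CPM in KO, against 2.97 and 3.17 CPM in WT, a 9.51-fold rise (log2 3.25, SE 0.11, adjusted p = 3.7e-11). Col20a1 had 4.82 and 5.31 CPM in KO, against 1.03 and 1.90 CPM in WT (log2 1.80, SE 0.24, adjusted p = 1.4e-05). All 3 were thus higher in both KO libraries than in either WT library. Col22a1, a collagen of the junction of muscle and tendon, was at a low level, with 1.16 and 1.33 CPM in KO against 0.938 and 0.879 CPM in WT. Its libraries did not overlap between genotypes, but it passed in neither direction (log2 0.45, SE 0.26, adjusted p = 0.14).

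The 3 chains of type IX collagen, which in cartilage form a single molecule on the surface of type II fibrils, were all at very low levels, 1 lower and 2 higher in KO. Col9a1 had 0 and 0 counts in KO, against 20 and 18 counts in WT, at least 13.1-fold lower when 3 counts over the KO group are taken as the floor. Col9a2 had 112 and 95 counts in KO, against 2 and 0 counts in WT, a ratio of 100 with an exact 95% interval for counting error of 27.3 to 831. Col9a1 and Col9a2 each passed the filter through 1 genotype only, so no p-value is given for them. Col9a3 had 1.37 and 1.26 CPM in KO, against 0.759 and 0.659 CPM in WT (log2 0.89, SE 0.27, adjusted p = 0.010). The call for Col9a3 was lost without KO replicate 1 (adjusted p = 0.091) or without KO replicate 2 (adjusted p = 0.052), and with DESeq2 (adjusted p = 0.092). Exons of Col9a3 overlap those of Tcfl5 on the opposite strand, which had 0 and 0 counts in KO against 241 and 190 counts in WT, and reads of both genes cannot be told apart if the counting did not use the strand.

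Type VI collagen is a heterotrimer of Col6a1, Col6a2 and another chain, either Col6a3 or a member of the Col6a4, Col6a5 and Col6a6 group. Of the 6 members, 4 were tested, of which 3 were higher and 1 lower in KO. The 3 include Col6a4, which passed the filter through KO only. Col6a1 had 1100.3 and 1129.5 CPM in KO, against 374 and 374 CPM in WT, a 2.98-fold rise (log2 1.58, SE 0.06, adjusted p = 7.5e-11). Col6a2 had 353 and 368 CPM in KO, against 75.4 and 77.3 CPM in WT, a 4.72-fold rise (log2 2.24, SE 0.06, adjusted p = 3.6e-12). Their usual partner, Col6a3, was the only one lower in KO, with 639 and 652 CPM in KO against 1054 and 882 CPM in WT (log2 -0.59, SE 0.08, adjusted p = 1.5e-05). Of the alternative partners, Col6a4 had 261 and 239 counts in KO, against 12 and 4 counts in WT (log2 4.90, SE 0.30). Because of the way it passed the filter, no p-value is given for it. Col6a5 had 3 and 2 counts in KO against 0 and 0 counts in WT, Col6a6 had 3 and 0 counts in KO against 1 and 2 counts in WT, and neither was tested.

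Types VIII and X are short chains that form sheet-like networks. Col8a2, found in the membrane under the corneal endothelium and in vessel walls, had 575 and 644 CPM in KO, against 60.0 and 46.3 CPM in WT. The means were 609 ± 48.7 CPM in KO and 53.2 ± 9.68 CPM in WT (SD, n = 2 each), an 11.4-fold rise (log2 3.52, SE 0.11, adjusted p = 8.3e-12). Col8a1, its partner in type VIII collagen, had 207 and 207 CPM in KO, against 331 and 289.8 CPM in WT (log2 -0.58, SE 0.07, adjusted p = 4.8e-06), so the chains of type VIII moved in opposite directions. Col10a1, the marker collagen of hypertrophic cartilage, had 5.01 and 4.73 CPM in KO, against 9.09 and 8.20 CPM in WT (log2 -0.83, SE 0.13, adjusted p = 0.00010). Exons of Col10a1 overlap those of Nt5dc1 on the opposite strand, which had 652 and 541 counts in KO against 761 and 594 counts in WT, more than Col10a1 itself. Reads of the pair cannot be told apart without the strand.

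Col7a1, the chain of the anchoring fibrils below epithelia, had 248 and 265 CPM in KO, against 117 and 88.5 CPM in WT (log2 1.32, SE 0.10, adjusted p = 6.0e-08). Col17a1, a transmembrane collagen of the hemidesmosome of epithelial cells, had 39 and 50 counts in KO, against 8 and 4 counts in WT (log2 2.83, SE 0.44). It passed the filter through KO only, so no p-value is given for it. Of 6 epithelial markers 2 were tested, and Cdh1 was higher in KO while Epcam passed in neither direction. Cdh1, too, passed the filter through KO only, so its call is no separate support. The list summed to 3.43 and 3.06 CPM in KO, against 0.848 and 1.32 CPM in WT, but without Cdh1 it summed to 0.442 and 0.461 CPM in KO, against 0.625 and 1.098 CPM in WT. Of the keratins, which were not tested, Krt8 had 2 and 0 counts in KO against 6 and 18 counts in WT, and Krt18 had 0 and 0 counts in KO against 3 and 7 counts in WT. Krt14 had 0 and 1 counts in KO against 7 and 2 counts in WT. Krt5 went the other way, with 6 and 5 counts in KO against 0 and 0 counts in WT. The part of epithelial cells in these results was not tested. Col23a1 (chr11:51103422-51397420 of mm9, plus strand), a transmembrane collagen whose outer part can be shed, had 14.8 and 15.5 CPM in KO, against 1.005 and 0.976 CPM in WT, a 15.2-fold rise (log2 3.93, SE 0.15, adjusted p = 8.9e-11). Col13a1, which acts at the neuromuscular junction, had 1 and 2 counts in KO against 0 and 0 counts in WT and was not tested. Col28a1, a collagen described in peripheral nerve, had 0.736 and 1.07 CPM in KO, against 0.871 and 0.781 CPM in WT, and was the only tested member whose genotypes overlapped (log2 0.11, SE 0.30, adjusted p = 0.76).

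Chains that share a molecule were then set against each other within each library, as ratios of CPM per kb of the longest coding transcript. Col1a1 stood at 0.227 and 0.265 of Col1a2 in KO, against 0.488 and 0.470 in WT, although type I collagen usually holds more α1 than α2 chains. The ratios of both genotypes depend on the length chosen, since with all annotated exons the means were 0.503 in KO and 0.983 in WT. The difference between genotypes on the log2 scale (-0.97) does not. Col5a1 over Col5a2 was 0.235 and 0.243 in KO, against 0.255 and 0.252 in WT, a log2 difference of -0.08. These ratios, too, depend on the length chosen, while their log2 difference does not. The 2 type V chains thus differed little in proportion, while both were lower in KO.

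**Figure D3:**
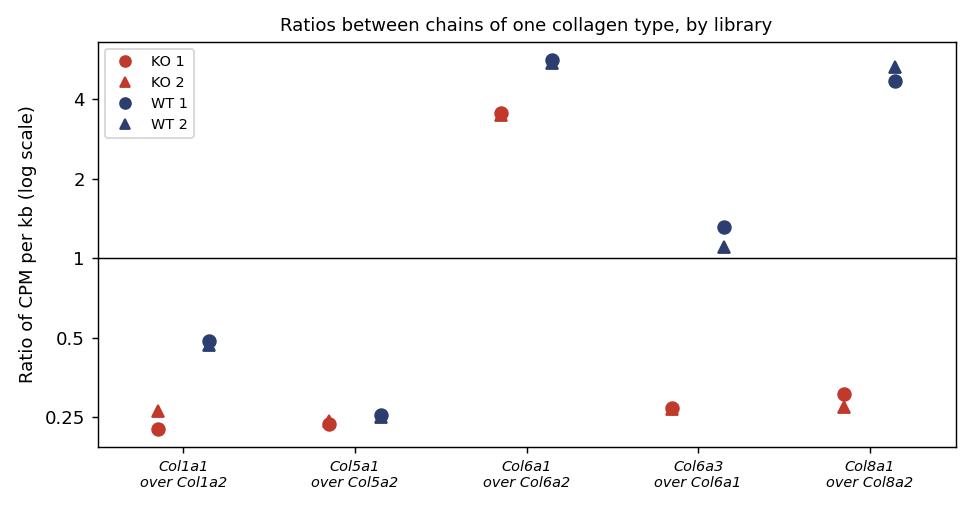
Ratio of 2 chains of one collagen type in each KO library (red) and WT library (blue), as CPM per kb over CPM per kb on a log axis with a line at a ratio of 1. Col8a1 over Col8a2 and Col6a3 over Col6a1 lie below 1 in KO and above 1 in WT, and Col5a1 over Col5a2 lies near 0.24 in KO and 0.25 in WT.

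Types VI and VIII were compared in the same way. Col6a1 over Col6a2 was 3.54 and 3.48 in KO, against 5.63 and 5.50 in WT (log2 difference -0.66). The size of this ratio depends on the length chosen, while its log2 difference does not. Col6a3 over Col6a1 was 0.272 and 0.270 in KO, against 1.32 and 1.103 in WT (log2 difference -2.16). Col6a3 RNA was thus scarcer than Col6a1 RNA in KO and at a like level in WT, and with all annotated exons as the length the mean ratio was 0.213 in KO and 0.948 in WT. Col8a1 over Col8a2 was 0.306 and 0.273 in KO, against 4.68 and 5.31 in WT (log2 difference -4.11), so the more abundant type VIII chain was Col8a2 in KO and Col8a1 in WT. The libraries did not overlap for any of the 5 ratios, and the exact two-sided permutation p was 0.333 for each, the smallest that 2 libraries against 2 allow.

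Added up, the 34 members took 1.71% and 1.83% of all counts in KO, against 2.43% and 2.21% in WT. Per kb of transcript, fibrillar chains summed to 1690.3 and 1849 CPM per kb in KO, against 3385 and 2969 CPM per kb in WT. Beaded filament chains summed to 418 and 429.8 CPM per kb in KO, against 228 and 209 CPM per kb in WT. Network chains summed to 175 and 191 CPM per kb in KO, against 81.5 and 70.1 CPM per kb in WT. The fibril-associated sum was nearly level, at 307 and 319 CPM per kb in KO against 306 and 306 CPM per kb in WT, since the abundant Col12a1 and the rarer chains moved in opposite directions. As a share of the summed collagen level per kb, fibrillar chains made up 64.5% and 65.6% in KO, against 84.3% and 83.3% in WT. Beaded filament chains made up 16.0% and 15.2% in KO, against 5.67% and 5.85% in WT. With all annotated exons as the length, the fibrillar share was 56.8% and 58.0% in KO, against 81.5% and 80.3% in WT. The beaded filament share was then 19.2% and 18.3% in KO, against 6.66% and 6.91% in WT. Ranked by level per kb, Col6a1 was number 3 in KO and number 9 in WT, and Col8a2 was number 7 in KO and number 14 in WT, while Col1a2 was number 1 and Col5a2 number 2 in both. These ranks depend on the length chosen. With all annotated exons, Col1a2, Col6a1 and Col5a2 were numbers 1, 2 and 3 in KO, and Col5a2 and Col1a2 were numbers 1 and 2 in WT, where Col6a1 was number 8.

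**Figure D4:**
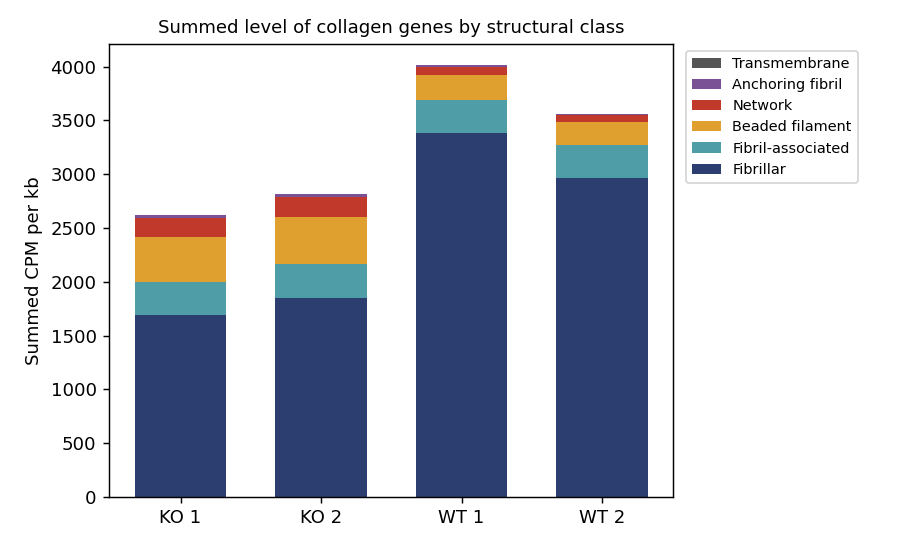
Summed level of the members in each library, in CPM per kb of the longest coding transcript, stacked by structural class from 0. The fibrillar block is shorter in both KO bars, and the beaded filament and network blocks are taller, than in the WT bars.

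Some members lie next to each other in the mm9 genome. Col9a1 and Col19a1 end 9.15 kb apart on chromosome 1, on opposite strands, and changed in opposite directions, Col9a1 being lower and Col19a1 higher in KO. Col3a1 and Col5a2, 24.6 kb apart on chromosome 1 and also on opposite strands, were both lower in KO. Col6a2 and Col6a1 lie 85.2 kb apart on the minus strand of chromosome 10 (chr10:76058507-76086375 and chr10:76171537-76188913) and were both higher. Col6a6, Col6a5 and Col6a4 follow each other on the minus strand of chromosome 9, and only Col6a4 was tested. Neighbours thus shared a direction in 2 of the 3 pairs with both genes tested. The pair that did not holds Col9a1, which passed the filter through WT only. Over all genes tested, 34.3% were higher and 32.5% lower in KO, and neighbours among all genes were not compared.

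Genes that make and handle collagen were lower more often than higher in KO. Of 48 tested, 14 were higher, 30 lower and 4 passed in neither direction, with a median log2 fold change of -0.37. The shares, 29.2% higher and 62.5% lower, stand beside 34.3% and 32.5% over all genes tested. Among the enzymes and chaperones of the helix, 10 of 16 were lower (62.5%) and 5 higher. Serpinh1, the collagen chaperone of the endoplasmic reticulum, had 790.4 and 799 CPM in KO, against 2562 and 2404 CPM in WT (log2 -1.64, SE 0.06, adjusted p = 9.4e-11). Leprel1, a prolyl 3-hydroxylase, had 1.98 and 2.18 CPM in KO, against 10.9 and 11.7 CPM in WT (log2 -2.44, SE 0.15, adjusted p = 7.0e-09). Plod1, a lysyl hydroxylase, had 33.2 and 36.9 CPM in KO, against 106 and 104 CPM in WT (log2 -1.58). Of the prolyl 4-hydroxylase catalytic chains, P4ha1 had 192 and 186 CPM in KO, against 345 and 362 CPM in WT (log2 -0.90). The other catalytic chains were among the 5 higher genes, P4ha2 with a log2 fold change of 0.45 and P4ha3 with 0.36, and the P4ha3 call was lost without KO replicate 2 (adjusted p = 0.22). Of the 5 secretion genes, which help large procollagen leave the endoplasmic reticulum, 4 were lower in KO. Sec24d, a coat protein of export vesicles, had 104 and 108 CPM in KO, against 227 and 233 CPM in WT (log2 -1.12). Creb3l1, a transcription factor of the secretory pathway in bone, was also lower (log2 -1.55), while its relative Creb3l2 was the 1 higher gene (log2 0.38).

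**Figure D5:**
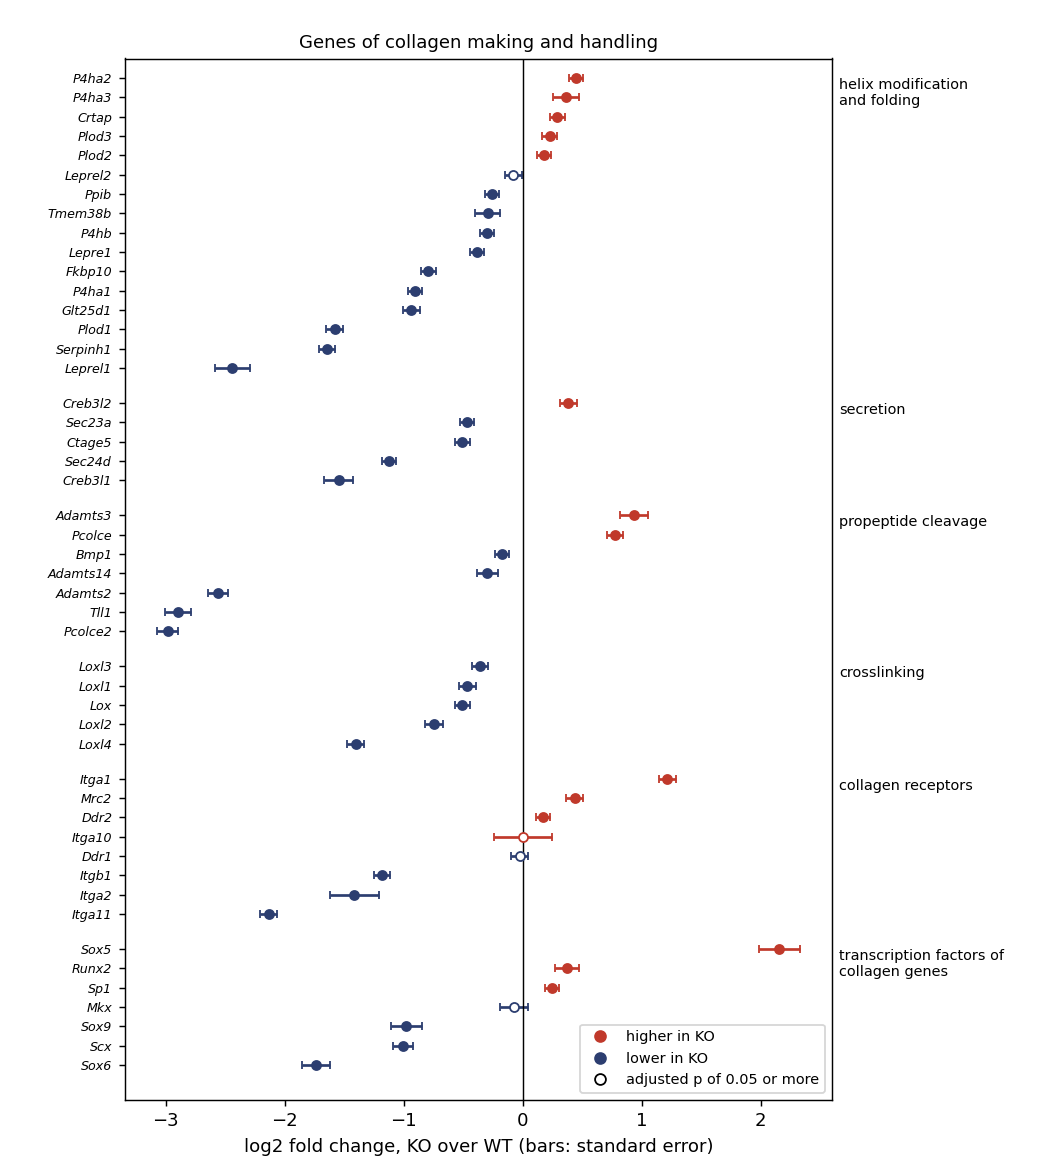
Log2 fold change (KO over WT) of the 48 genes tested in the lists of collagen making and handling, with bars of 1 standard error and open points for genes that did not pass an adjusted p of 0.05. All 5 crosslinking enzymes lie below 0, while receptors and transcription factors lie on both sides.

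Outside the cell, propeptides are removed and the fibrils crosslinked. Of 7 propeptide cleavage genes, 5 were lower and 2 higher in KO. Adamts2, the main enzyme that removes the amino-terminal propeptide, had 9.57 and 10.4 CPM in KO, against 57.5 and 60.3 CPM in WT (log2 -2.56, SE 0.08, adjusted p = 1.7e-11). Its relative Adamts3 was higher in KO (log2 0.94). Tll1, a carboxy-propeptide proteinase, had 13.8 and 12.6 CPM in KO, against 110.3 and 86.1 CPM in WT (log2 -2.89). The enhancers of that cleavage went opposite ways, Pcolce2 with 10.4 and 9.75 CPM in KO against 85.0 and 74.7 CPM in WT (log2 -2.98), and Pcolce with 668 and 727 CPM in KO against 397 and 417 CPM in WT (log2 0.78). All 5 lysyl oxidases tested, the crosslinking enzymes, were lower in KO. Lox, the most abundant, had 1484 and 1477 CPM in KO, against 2125 and 2083 CPM in WT (log2 -0.51, SE 0.06, adjusted p = 5.7e-06). Loxl4 had 28.2 and 28.9 CPM in KO, against 78.4 and 72.5 CPM in WT (log2 -1.40).

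The cell's collagen receptors were mixed, with 3 of 8 higher and 3 lower in KO (37.5% each), close to the shares over all genes. Itga11, the integrin chain by which fibroblasts bind fibrillar collagen, had 30.2 and 33.5 CPM in KO, against 139.7 and 139 CPM in WT (log2 -2.14, SE 0.07, adjusted p = 1.7e-11). Its partner Itgb1 had 865 and 825 CPM in KO, against 2028 and 1806 CPM in WT (log2 -1.18). Itga1, whose integrin prefers type IV collagen, was higher, with 209 and 208 CPM in KO against 82.1 and 97.5 CPM in WT (log2 1.22). The collagen uptake receptor Mrc2 (log2 0.43) and the receptor kinase Ddr2 (log2 0.17, adjusted p = 0.017) were higher by less. The Ddr2 call was lost without KO replicate 1 (adjusted p = 0.063), without KO replicate 2 (0.096) and with no filter (0.065). Of the 7 transcription factors known for collagen genes, 3 were higher and 3 lower. Among the SOX factors that act on Col2a1 in cartilage, Sox5 was higher (log2 2.16), and Sox6 (log2 -1.73) and Sox9 (log2 -0.98) were lower in KO. Scx, a tendon factor, was lower (log2 -1.01), and Runx2, a bone factor (log2 0.37), and the widely expressed Sp1 (log2 0.25) were higher. The Runx2 call was lost without KO replicate 2 (adjusted p = 0.10).

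Markers of other cell types were measured beside these results. The 10 fibroblast markers summed to 6779 and 7102 CPM in KO, against 11150.1 and 10411 CPM in WT. Of these, 2 were higher (Prrx1 and Fap) and 4 lower (Vim, Fn1, Dcn and Lum). Over all genes tested, 34.3% were higher and 32.5% lower in KO. Fap passed the filter through KO only, and Dcn and Lum through WT only, so these calls are no separate support. The 4 that passed in neither direction were Pdgfra, Pdgfrb, Thy1 and Twist1. Smooth muscle markers summed to 4013 and 4014 CPM in KO, against 6148 and 5377 CPM in WT, with 1 higher and 3 lower of 5. The higher one, Myh11, had 56 and 41 counts in KO against 16 and 6 counts in WT. It passed the filter through KO only. The 3 bone markers tested, Runx2, Alpl and Dmp1, were called higher in KO. Dmp1 passed the filter through KO only, so its call is no separate support, and the Runx2 call was lost without KO replicate 2. The bone list summed to 17.8 and 20.2 CPM in KO, against 13.4 and 14.3 CPM in WT. Endothelial markers summed to under 1 CPM in every library. Skeletal muscle, neural and blood lists summed to 1.66 to 8.35 CPM in KO, against 2.10 to 35.7 CPM in WT. The neural sum was lower in KO through Tubb3, and without it stood at 2.78 and 2.67 CPM in KO, against 0.915 and 1.44 CPM in WT. The part of these cell types in the collagen results was not tested.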

How the data were processed

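RNA from 2 KO and 2 WT MEF samples was sequenced as stranded, ribosomal RNA-depleted libraries with single reads of 50 bases. The authors aligned the reads to mm9 with TopHat2 and Bowtie and counted them per Ensembl gene with HTSeq 0.5.4p3, and the deposited raw counts of 23537 genes were used here. Whether that counting used the strand is not stated. The table's normalized counts and the authors' own comparison (log2 ratios and p-values) were not used. Of the identifiers, 23393 stood in the mm9 annotation used for positions and transcript lengths.

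Genotypes were compared with edgeR 4.0.16 in R 4.3.3 (filterByExpr, TMM, quasi-likelihood test, genotype as the only term, Benjamini-Hochberg adjustment over 15538 genes). Standard errors were obtained by dividing the size of the log2 fold change by the root of the F statistic. For a genotype at 0 counts, 3 counts over its libraries served as the floor, and a ratio to 1 to 3 counts is given with an exact 95% interval. Both cover counting error only. Levels between genes are per kb of the longest coding transcript. Exact permutation tests used scipy 1.17.1 in Python 3.11.15. In data simulated from these libraries (15192 genes), 50 of 50 genes raised by a log2 fold of 1 and 49 of 50 lowered by 1 were recovered, with 6 false calls. The simulation gave every gene the common spread and changed only a small part of the genes, all above 1 CPM. Its rates therefore do not carry over to rarer genes, to genes with a wider spread or to data with many changes.

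Members, lists and alternatives were chosen with earlier results of these data known. Members given in full are the most abundant and the strongly changed of each class and the 6 largest rises and falls. Of each list of other genes, the most abundant and the largest changes with a mean of at least 1 CPM were eligible. Alternatives were RLE, upper-quartile and library-total scaling, other filters and thresholds, DESeq2 1.42.0, limma-voom (limma 3.58.1), a block for the replicate number, and each library left out in turn. The length of all annotated exons, and marker sums without the marker that differed most, were added after the data were seen.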

Additional observations from a re-analysis of the deposited data

How the results depend on the processing

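Of the 30 members tested, 29 kept the direction of their change under every alternative that gave a value for them, 4 of them (Col17a1, Col6a4, Col9a1 and Col9a2) having none with at least 10 counts in every library. The exception was Col28a1, which was called in no fit and had a log2 fold change of -0.17 without KO replicate 2 and 0.37 without KO replicate 1. Counts of members called stayed at 13 to 14 higher and 14 lower without any single library, and strong calls at 8 to 9 higher and 1 to 3 lower. With at least 10 counts in every library, 5 members were strongly higher and 1 strongly lower, and the median of the members was -0.070. The median over the 13855 genes tested in that fit was 0.016, and their share of strong changes is not given. The median was 0.43 with library totals, 0.65 with no filter, and 0.090 to 0.46 without any single library. Library totals moved the median of all genes to 0.17. With an absolute log2 fold change over 1 as the limit, 13 members were higher and 8 lower. Pathway genes were 10 to 14 higher and 27 to 30 lower without any single library. Calls lost for Col9a3, Col12a1, Ddr2, Runx2 and P4ha3 are given beside their values. What the replicate numbers stand for is not stated. The deviations of equally numbered libraries from their group means correlated at -0.0924 over 10685 genes, a value that cannot exclude a pairing or a batch. With the replicate block, 14 members were higher and 14 lower, 8 and 2 of them strongly, and no call changed. Low counts limit Col6a5, Col6a6, Col13a1 and Col24a1, which were tested in no fit with a filter.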
